A study of Mus musculus with 4 samples.

Results

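The comparison described here set bone marrow cells grown with GM-CSF against bone marrow cells grown with M-CSF, both from db/+ mice, with 1 RNA library in each culture and 4 libraries in the whole series. The db/+ mice were non-diabetic controls, male and 12 weeks old, of the strain BKS.Cg-m+/+leprdb+/J, which carries the db mutation of the leptin receptor gene on 1 of its 2 copies. The marrow was kept in culture for 7 to 8 days, M-CSF being given at 10 ng/ml and GM-CSF at 20 ng/ml, and RNA freed of ribosomal RNA was sequenced as read pairs. The other 2 libraries came from the same cultures of male db/db mice of that age (BKS.Cg-m+/+leprdb/J), labelled as type 2 diabetic, and are used beside the db/+ values. The labels call all cells bone marrow macrophages and name no sorting, and the sources used here do not say whether a library came from 1 mouse or from pooled mice. Of the 22700 genes listed, the 9891 that reached 200 normalised reads in at least 1 of the db/+ libraries were compared, and 1500 genes were also read in 63 lists of gene families and functions.

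M-CSF and GM-CSF are growth factors that keep myeloid cells alive and steer their development. M-CSF signals through the receptor tyrosine kinase encoded by Csf1r and yields adherent macrophages, close in type to many resident tissue macrophages. GM-CSF signals through a specific alpha chain and a beta chain shared with other cytokines, acts largely through the kinase JAK2 and the transcription factor STAT5, and is needed for alveolar macrophages of the lung. Marrow grown in GM-CSF is widely used as a source of inflammatory macrophages and of cells with dendritic features, so the pair of cultures is a standard contrast of macrophage states.

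Levels are normalised reads, that is read numbers scaled to make the libraries comparable. Log2 folds compare log2(normalised reads + 5), so that the 5 added reads damp the folds of genes near 0. As each culture of db/+ marrow has 1 library, the db/+ difference has no replicate check, so genes are described by their size of difference, with no p-value. Intervals are exact 95% intervals on the ratio of read pairs and cover counting error only. The libraries held between 25603389 and 28622697 reads, and 3 read pairs, the floor used here for a library at 0, were worth 5.23 to 6.73 normalised reads. The 2 GM-CSF libraries were close to each other: only 8 of the genes compared were at least 2-fold apart between the genotypes, and for genes with 1000 to 10000 reads the squared log difference between them was 1.42 times its sampling variance, against 17.4 times for the 2 M-CSF libraries. Reads were spread over more genes in M-CSF, where 2518 genes of the db/+ library were at 0 against 6738 in GM-CSF, and 526 against 114 of 1123 olfactory receptor genes had reads. The gap was narrower in db/db marrow, with 3882 genes at 0 in M-CSF and 6648 in GM-CSF, and 331 and 96 olfactory receptor genes with reads. Scaling by total reads in place of the deposited scaling would shift the db/+ log2 folds by a median of -0.32. In these bulk cultures, fewer cells of a type and less RNA per cell cannot be told apart.

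Of the 9891 genes, 1210 (12.2%) stood 2-fold or more above the M-CSF level in the GM-CSF library and 946 (9.56%) 2-fold or more below it, together 21.8%, with a median log2 fold of 0.11 over the genes compared and -0.10 over all 22700 rows. Scaled by total reads, 813 were higher and 1427 lower, so the balance of directions depends on the scaling and the total of 2240 hardly does. Large differences were common: the bound of 4-fold was passed by 488 higher and 424 lower genes, and that of 16-fold by 151 and 182. The 2-fold bound cut a continuous range, with Spns1 just inside it at 1287 and 2579.6 normalised reads and Tiparp just outside it at 1887 and 3779. A gene that reached the level minimum in only 1 of the libraries passed it through the culture in which it was higher, so counts in gene lists are given beside the number of members measured. The shares over all genes, 12.2% higher and 9.56% lower, count only genes that reached the minimum. Counts per member measured therefore have another base than these shares.

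**Figure D1:**
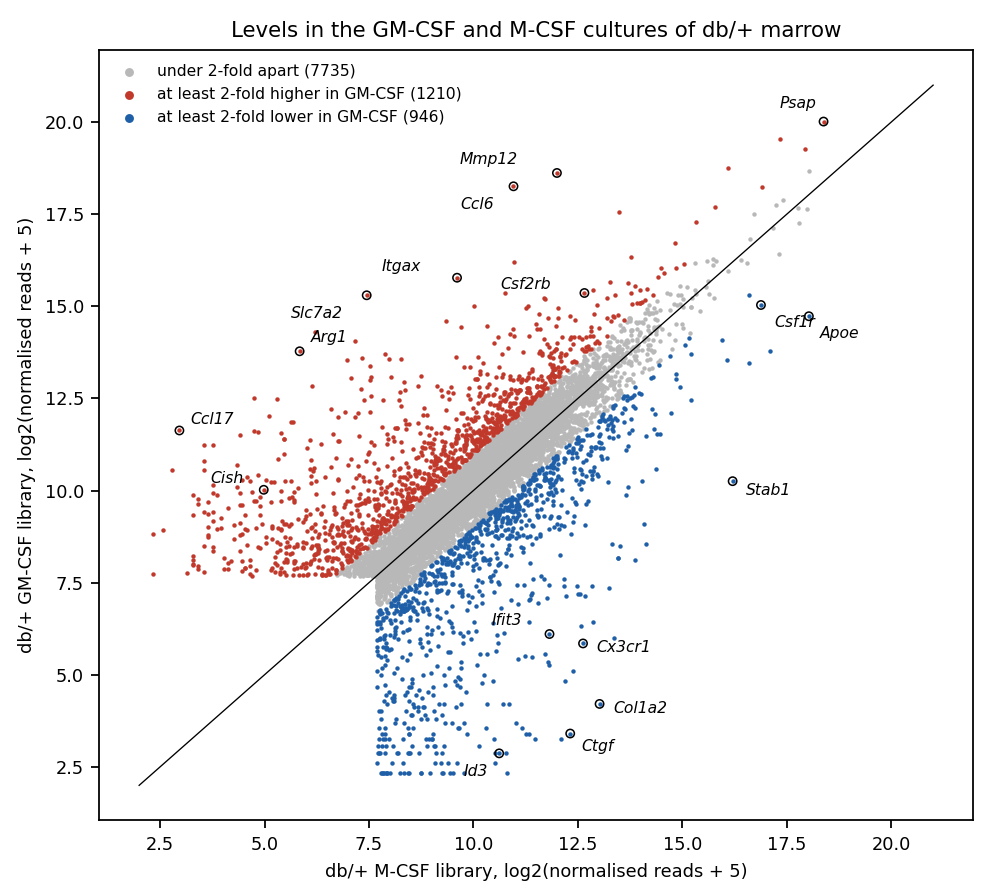
Each point is 1 of 9891 genes, placed by its level in the db/+ M-CSF library (horizontal axis) and the db/+ GM-CSF library (vertical axis), both as log2(normalised reads + 5). Red points (1210) are at least 2-fold higher and blue points (946) at least 2-fold lower in GM-CSF, the line marks equal levels, and the straight lower edges of the cloud come from the minimum of 200 normalised reads in either library.

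The 10 highest log2 folds belonged to Ccl17, Nov, Arg1, Slc7a2, Klk1b1, Slc6a12, Ear6, Rbp4, Ccl6 and Ear7. Ccl17, a chemokine that attracts T cells through CCR4, stood at 2.8 normalised reads in M-CSF and 3163 in GM-CSF, and at 1.7 and 2965 in the db/db libraries. Nov, which encodes the matricellular protein CCN3, stood at 68.5 and 20233, and Slc6a12, a transporter of betaine, at 21.9 and 5794. The kallikrein gene Klk1b1 stood at 1.9 and 1514, and Rbp4, the retinol carrier of plasma, at 8.6 and 2410.3. The 10 lowest log2 folds belonged to Ctgf, Sparc, Col1a2, Serpinh1, Bgn, Tnc, Col5a2, Mpo, Folr2 and Id3. The first 7 of these encode matrix proteins, matrix-associated factors or, for Serpinh1, the chaperone of collagen, whereas Mpo is the myeloperoxidase of neutrophil granules, Folr2 a folate receptor of macrophages and Id3 an inhibitor of helix-loop-helix transcription factors. By reads, the 10 leading genes of the M-CSF library were Psap, Ctsb, Apoe, Rn45s, Lyz2, Rpph1, Actb, Rmrp, Ctsd and Malat1, and those of the GM-CSF library were Psap, Ctsd, Lyz2, Gpnmb, Ctsb, Mmp12, Ccl6, Fth1, Rmrp and Ahnak. The 10 leading genes took 9.59% of reads in M-CSF and 15.7% in GM-CSF. Psap, the precursor of the saposins that assist lysosomal lipid breakdown, led both libraries, at 340732 and 1057138 normalised reads. Actb, the cytoplasmic actin, was nearly level at 222884 and 207579, and the ribosomal RNA precursor Rn45s under 2-fold apart at 257458 and 205879.

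The receptors for the growth factors differed in opposite directions. Csf1r stood at 120627 normalised reads in M-CSF and 33549.6 in GM-CSF, 3.6-fold lower in GM-CSF (95% counting interval 3.53 to 3.66), with 105159 and 33103 in the db/db libraries. Csf2rb, the shared beta chain, stood at 6448 and 42046, 6.52-fold higher in GM-CSF (interval 6.29 to 6.76), with 5638 and 41581 in db/db marrow. Both GM-CSF values lay above both M-CSF values, which held for 48.5% of all genes compared. Csf2rb2, a close copy of Csf2rb and the beta chain used by interleukin-3, stood at 3109 and 21198, though reads may be split between such copies. Csf2ra, the alpha chain specific to GM-CSF, was at 4374 and 8744 in db/+ marrow and at 3023 and 9425 in db/db marrow. Kit, the receptor of stem cell factor, was 24.8-fold higher in GM-CSF (106 and 2614), and Csf3r, the receptor of G-CSF, was 7.59-fold lower (3901 and 514). Of the ligands, Csf1 stood at 2485 and 3071 in db/+ marrow, while its db/db M-CSF level was 6065. Csf2 was at 3.8 in the db/+ M-CSF library, under the floor, and at 0 in the other 3. Of 16 measured receptors and ligands of this family, 9 reached the minimum, 3 were higher and 3 lower. Lepr, the gene mutated in the db strain, was under the minimum, at 6.7 and 49.4 normalised reads.

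In the STAT5 pathway the genes with known feedback roles held the highest folds. Of its 29 measured members 26 reached the minimum, 7 were higher and 4 lower, and the median log2 fold was 0.21, or -0.11 with total-read scaling. Cish, a STAT5-induced suppressor of cytokine signalling, stood at 26.6 and 1033 normalised reads, 38.8-fold higher (interval 22.9 to 71.4), with 37.5 and 1140.3 in db/db marrow. Socs2, of the same family, stood at 66.6 and 1461, with 89.7 and 1492 in db/db marrow, and the survival kinase Pim1 was 5.92-fold higher at 963 and 5701. Ccnd1, the cyclin D1 gene, went the other way, at 1479 and 308, and its db/db M-CSF level was higher still, at 2554. The kinase Jak1 (10720.5 and 11208) and the factor Stat6 (7471 and 8761) were nearly level. Among the 22 listed genes with a RefSeq promoter, the letters TTCNNNGAA, a simple form of the STAT5 site, lay in the 250 bases before the start of 1, Socs3, against 8.13% of all genes.

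Markers of M-CSF macrophages were lower in GM-CSF almost throughout. Of 28 measured markers 25 reached the minimum, 22 were at least 2-fold lower and none was higher, 6 of the 25 having reached the minimum in M-CSF only, and the median log2 fold over all 28 was -2.64. Stab1, the scavenger receptor stabilin-1, stood at 75415 and 1216 normalised reads, 62.0-fold lower (interval 57.0 to 67.6), and at 60824 and 1429.7 in db/db marrow. Cx3cr1, the receptor of fractalkine, stood at 6300.5 and 52.7, 119.6-fold lower, and Folr2 at 2443 and 5.6. P2ry12 (1140.4 and 42.6) and Gpr34 (1516 and 62.8), nucleotide and lipid receptors best known from microglia, were also lower. Apoe, the lipoprotein that carries cholesterol out of macrophages, stood at 267107 and 27164, 9.83-fold lower, and Sepp1, selenoprotein P, at 141265 and 14007. Igf1, insulin-like growth factor 1, was under 2-fold apart at 32585 and 23328. Of genes that define macrophages in general, Emr1, the gene of F4/80, stood at 98662 and 11230.3, the lysosomal glycoprotein gene Cd68 at 15996 and 24556, and the pore-forming Mpeg1 at 148015 and 142656. Emr1 and Mpeg1 were chosen after their values were seen. All 3 genes were well read in both cultures and Emr1 was 8.79-fold lower in GM-CSF. In db/db marrow 21 of the 28 markers were lower and none higher.

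Of 32 measured markers of GM-CSF cultures and dendritic cells, 22 reached the minimum, 16 were higher and 4 lower, with a median log2 fold of 1.94, and 10 of the 22 reached the minimum in 1 library only. Itgax, which encodes the integrin chain CD11c, stood at 775 and 56042 normalised reads, 72.3-fold higher (interval 65.5 to 79.8), with 921 and 56259 in db/db marrow. Mmp12, the macrophage elastase, stood at 4085 and 401959, 98.4-fold higher. Genes known from alveolar macrophages were among those higher: Car4, a carbonic anhydrase, was at 0 in both M-CSF libraries and at 445 in the db/+ GM-CSF library, at least 78.0-fold higher, Siglec5, listed under an older symbol of Siglec-F, stood at 19.0 and 1306, and Fabp4, a fatty acid carrier, at 422 and 8828. The nuclear receptor Pparg, which GM-CSF induces in the lung, was 1508 and 2743, under 2-fold apart. Of dendritic cell genes, Ccr7, the receptor for homing to lymph nodes, reached only 286 in GM-CSF from 33.3, Clec9a stood at 24.7 and 640.4, and the factor Irf4 was 3.1-fold higher (1014 and 3139). Other listed genes went the opposite way, and Ciita was one of the 4 lower, at 2629.9 and 951. Fscn1 and Ccnd2, chosen after their values were seen, were lower over both genotypes, with log2 differences of -4.70 and -1.53.

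**Figure D2:**
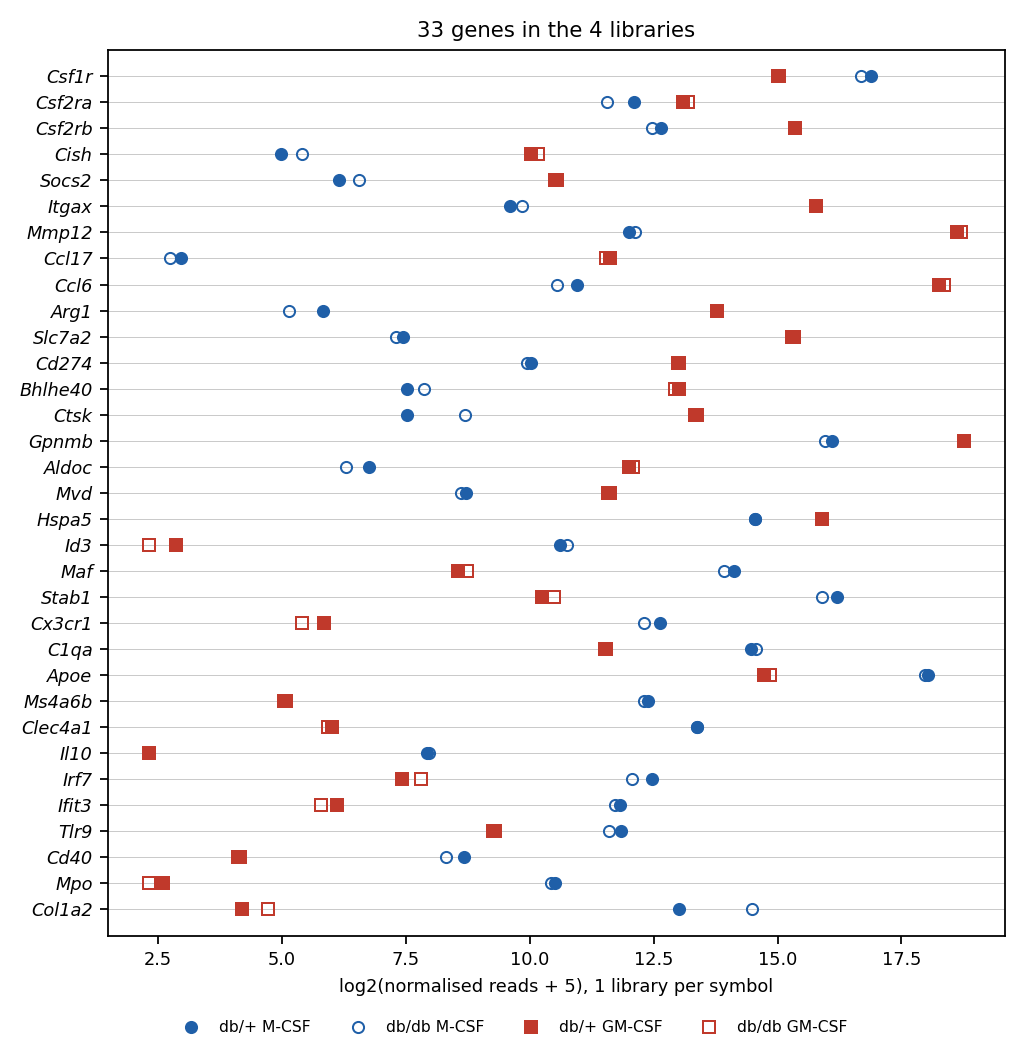
Levels of 33 genes as log2(normalised reads + 5), 1 library per symbol: circles are M-CSF, squares GM-CSF, filled symbols db/+ and open symbols db/db. For every gene drawn both GM-CSF squares lie on the same side of both M-CSF circles, and the 2 genotypes lie close together within a culture except for genes such as Col1a2 and Ctsk, whose db/db M-CSF circle lies above the db/+ one. Squares above circles were found for 48.5% and below for 34.2% of all genes compared, so this is no property of the genes drawn.

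Markers of other cell types also moved with the culture, most of all those of stromal cells. Of 37 stromal and fibroblast markers 28 reached the minimum, 23 of them in M-CSF only, 26 were lower and 2 higher, with a median log2 fold of -4.88. Col1a2, a chain of collagen I, stood at 8292 and 13.5 normalised reads in db/+ marrow and at 22962 and 21.5 in db/db marrow. Sparc (4400.0 and 4.5), Bgn (2825 and 4.5) and Serpinh1 (1767 and 0) had the same pattern, with GM-CSF near or under the floor of 6.73. Smooth muscle contractile genes went with them: 10 of 16 reached the minimum, all 10 were lower, and the smooth muscle actin Acta2 stood at 6124 and 75.2, with 15145 in db/db M-CSF. Of the 26 lower stromal genes, 23 were also at least 2-fold higher in the db/db than in the db/+ M-CSF library, a step shown by 1.9% of all genes compared and by 124 (13.1%) of the genes lower in GM-CSF. Without those 124, 822 genes were lower. The same step was shown by 48 of the 1210 genes higher in GM-CSF, so it was not confined to lower genes. The 2 higher members were Vim, an intermediate filament gene that macrophages also use (28870.4 and 107046), and Fstl1 (1867 and 19499.7, with 5157 in db/db M-CSF), and Vim, most of all in GM-CSF, set much of the summed level of the list, which was 97444 in M-CSF and 128925 in GM-CSF. In the db/+ GM-CSF library 6 of the 37 markers were at 0, against none in M-CSF. The part of stromal cells in the differences of genes named further on was not tested.

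Neutrophil granule genes were lower in GM-CSF as well. Of 19 measured, 13 reached the minimum, 11 were lower and 1 higher, and the M-CSF levels were alike in the genotypes: Mpo stood at 1448 and 1.1 in db/+ marrow and at 1373 and 0 in db/db marrow. Ngp, neutrophilic granule protein, stood at 3536 and 35.9, lactoferrin (Ltf) at 1843 and 13.5, and the calprotectin chain S100a9 at 5749.7 and 140.2. The exception was Mmp8, the neutrophil collagenase, at 1283 in M-CSF and 22757 in GM-CSF, which made the summed level of the list almost equal (23085 and 24488). Lists for other marrow lineages hardly reached the minimum: 1 of 14 erythroid genes, 2 of 14 B cell genes, 3 of 20 T and NK cell genes, 1 of 16 mast cell genes, 3 of 10 eosinophil genes, 5 of 14 endothelial genes and 4 of 14 adipocyte genes. The members that reached it included Tfrc, Cd22, Cd79b, Il7r, Cd4, Cd247, Kit and Lpl, and which cells their reads came from was not tested. Among the eosinophil genes Mbp reached it, at 2760 and 2740, but in mice it is the gene of myelin basic protein. It held most of the M-CSF sum of that list, 3103. Among endothelial markers 3 were higher and 2 lower, and the median log2 fold over all 14 was -0.07. Vwf, the von Willebrand factor gene, was 33.6-fold higher in GM-CSF (255 and 8578), Kdr, a VEGF receptor, 12.0-fold higher, and Cdh5, VE-cadherin, 9.66-fold higher (20.9 and 202). Pecam1 was 7.38-fold lower (513 and 69.5), and Eng was lower too, at 1249 and 273.

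**Figure D3:**
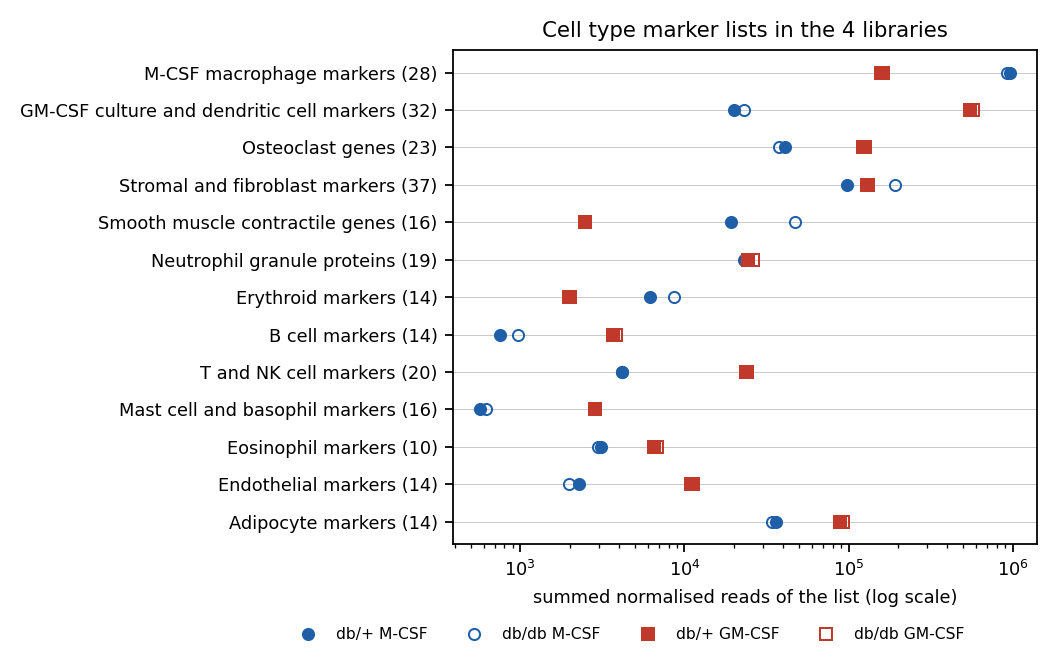
Summed normalised reads (log axis) of 13 marker lists in the 4 libraries, with the number of measured genes in brackets; circles are M-CSF, squares GM-CSF, filled db/+ and open db/db. M-CSF macrophage markers sum to 966190 in the db/+ M-CSF and 157215 in the db/+ GM-CSF library, and smooth muscle genes are at 19204 and 2461 there with the db/db M-CSF library higher at 47291. The eosinophil list includes Mbp, in mice the gene of myelin basic protein, which holds most of its db/+ M-CSF sum.

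Lineage transcription factors separated the cultures in both directions: of 37 measured, 27 reached the minimum, 8 were higher and 8 lower. Maf, a factor of mature resident macrophages, stood at 17915 and 369 normalised reads, 48.5-fold lower in GM-CSF (interval 41.7 to 57.2), with 15406 and 421 in db/db marrow. Id3 stood at 1565 and 2.3, and Spic, the factor of iron-recycling splenic macrophages, at 203 and 1.1. Higher in GM-CSF were Bhlhe40, a helix-loop-helix repressor with a known part in alveolar macrophages (179.8 and 8255, 45.9-fold), Egr2 (326 and 3829, 11.7-fold) and Cebpb (1273 and 7152, 5.62-fold). The monocyte factor Irf8 was at 6141 and 3529.6, and Klf6 (11654 and 14154) and Rxra (4948 and 4789) were nearly level. Among AP-1 and EGR factors 4 of 18 measured were higher and 2 lower: the AP-1 partners diverged, with Fos at 2918 and 643 and Jun at 3316 and 7491, and the close relatives Egr1 (343 and 122) and Egr2 went opposite ways. The stress factor Atf3 was 2.8-fold higher (4759.6 and 13347).

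Interferon-stimulated antiviral genes were lower in GM-CSF as a group, in cultures for which the labels give no treatment beyond the growth factor. Of 40 measured, 39 reached the minimum, 32 were at least 2-fold lower and none was higher, against 9.56% lower among all genes compared, and the median log2 fold was -1.82 (25 lower and a median of -1.53 in db/db marrow). All but 1 of the 40 genes were also lower in the db/db than in the db/+ M-CSF library, with a median log2 difference of -0.23. The db/+ gap was therefore the wider one. Other lists also leaned to 1 side: 1 of 17 MHC class II genes and 0 of 9 interferon regulatory factors were higher in the db/db M-CSF library. By contrast, 31 of 34 ATF4 target and tRNA synthetase genes were higher there. The share over all genes was not counted. Ifit3, an RNA-binding antiviral protein, stood at 3611 and 63.9 normalised reads, 56.5-fold lower (interval 39.6 to 86.8), with 3364 and 50.6 in db/db marrow. Irf7, the factor that amplifies type I interferon, stood at 5663 and 166, 34.1-fold lower (interval 27.1 to 43.6), and Oasl1 at 528 and 11.2. Ifi44, of unknown mechanism, stood at 1174 and 22.4. At the mild end, Ifitm3, which blocks virus entry, was 2.32-fold lower (8991 and 3881), and Lgals3bp, a secreted glycoprotein, was level at 17354 and 17993.

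The known DNA element of these genes is the interferon-stimulated response element, here searched as GAAA repeated after any 2 bases, on both strands in the 250 bases before each gene start of RefSeq (GRCm38.p6), where overlapping matches count separately. It lay before 10 of the 29 listed genes that had a promoter in the table (34.5%), against 936 of 27025 genes (3.46%). Of all 29 genes 22 were lower in GM-CSF, and of the 10 with the element 9 were. The stretches of 4 of them are printed below, 5′ to 3′ on the strand of the gene, because they show the element singly, spaced and overlapping, with the matching letters in capitals and TTTC runs marking the opposite orientation. A match is a description of the letters and no evidence of binding in these cells. The list was drawn from genes known to respond to interferon, so the shared letters describe the list and not what acted here.
Ifit3, chr19:34583335-34583454, plus strand: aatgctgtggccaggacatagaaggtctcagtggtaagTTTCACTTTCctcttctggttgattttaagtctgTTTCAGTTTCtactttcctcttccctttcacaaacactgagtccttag
Isg15, chr4:156200826-156200945, minus strand: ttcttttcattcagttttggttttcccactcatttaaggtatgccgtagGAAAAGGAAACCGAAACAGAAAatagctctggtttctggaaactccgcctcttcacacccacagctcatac
Oas3, chr5:120777670-120777789, minus strand: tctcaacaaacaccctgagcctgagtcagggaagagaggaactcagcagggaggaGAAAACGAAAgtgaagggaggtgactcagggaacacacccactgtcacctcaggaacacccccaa
Rsad2, chr12:26456508-26456627, minus strand: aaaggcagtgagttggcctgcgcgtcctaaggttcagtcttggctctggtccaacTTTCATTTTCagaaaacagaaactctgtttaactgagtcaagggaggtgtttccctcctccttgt
The levels behind these stretches were 702 and 79.6 normalised reads for Isg15, the ubiquitin-like modifier, 4572 and 523 for Oas3, a sensor of double-stranded RNA, and 1855 and 366 for Rsad2, the antiviral enzyme viperin. These are 8.82-fold (interval 6.16 to 12.6), 8.75-fold (interval 7.65 to 10.1) and 5.07-fold (interval 4.29 to 6.03) lower in GM-CSF. Isg15, Oas3 and Rsad2 were chosen for their promoters after their values were seen.

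The interferon-inducible GTPases, which attack vacuoles of intracellular pathogens, and the interferon regulatory factors were more mixed. Of 16 measured GTPases 14 reached the minimum, 8 were lower and 2 higher, with Iigp1 at 816 and 20.2 normalised reads and Irgm1 at 2766 and 1248. Tgtp1 and Tgtp2, near-identical copies whose reads cannot be assigned with certainty, were 29.8-fold and 30.2-fold lower (634 and 21.3, 1286 and 42.6). Gvin1, the giant member of the family, was almost level at 37729.5 and 32176. Of 8 regulatory factors that reached the minimum 3 were lower (Irf7, Irf1 and Irf9), or 6 with total-read scaling, and Irf4 was higher, Irf1 standing at 3778 and 1146.

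Receptors that sense microbes differed in both directions. Of 25 Toll-like receptors and adaptors 7 were lower and 1 higher, 31.8% and 4.55% of those that reached the minimum. The lowest fold of those that reached the minimum was that of Tlr1, a partner of Tlr2 at the cell surface, at 1539.9 and 246 normalised reads. Tlr9, the endosomal receptor of CpG DNA, stood at 3666 and 607 normalised reads, Tlr7 at 14925 and 7177, and Unc93b1, which carries these receptors to endosomes, at 37644 and 13297, 2.83-fold lower, while Tlr13 was level at 12391 and 11391. Ly86, the partner of the TLR relative CD180, was 5.04-fold lower (7448 and 1477), and the signalling kinase Irak4 3.21-fold lower (943 and 294). C-type lectin receptors divided almost evenly, 10 higher and 9 lower among the 20 of 27 that reached the minimum. Clec4a1 stood at 10596 and 59.5, 178-fold lower (interval 124 to 278), and Mrc1, the mannose receptor CD206, was 2.32-fold lower (20069 and 8662). Clec7a, the beta-glucan receptor dectin-1, was 9.21-fold higher (3058 and 28171), Clec4n, dectin-2, 7.33-fold higher (2940.0 and 21545) and Ly75, the endocytic receptor DEC-205, 30.5-fold higher (146 and 4434, with 426 and 4231 in db/db marrow). Mrc2 was 409.9 and 2.3 but, like the stromal markers, stood higher in the db/db M-CSF library, at 1132. Of 9 Fc receptor genes that reached the minimum 6 were lower, among them the neonatal Fc receptor Fcgrt (6893 and 830.0), the high-affinity receptor Fcgr1 (5419 and 1446) and Fcrls (21071 and 1519), whereas Fcgr3 (17456 and 16892) and the signalling chain Fcer1g (15737 and 15726) were level.

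In the complement system 5 of 25 measured genes were higher and 5 lower. These are 33.3% and 33.3% of the 15 that reached the minimum, against 12.2% and 9.56% of all genes compared. The genes of C1q, which starts the classical pathway, were lower, C1qa standing at 22537 and 2980.0 normalised reads (7.56-fold) and C1qb at 68771 and 11940.3 (5.76-fold). Factor B (Cfb), a component of the alternative pathway, was 11.9-fold higher (172 and 2048). Among the integrin chains of complement receptors, Itgb2 was 5.87-fold higher (13982 and 82102) and Itgam, CD11b, level at 40332 and 44643. Of other leukocyte integrins Itgad, CD11d, stood at 91.3 and 4772, 52.3-fold higher, and Itga9 at 1671 and 13.5, 124-fold lower, and in all 6 were higher and 6 lower of the 17 that reached the minimum. Itga11, a collagen-binding chain, followed the stromal pattern, at 367 and 3.4 in db/+ marrow against 1038 with M-CSF in db/db marrow.

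Receptors for the uptake of particles and dying cells also differed in both directions. Among 18 measured scavenger receptors 5 were lower and 2 higher, 33.3% and 13.3% of those that reached the minimum. Cd5l, a secreted inhibitor of apoptosis, stood at 4666 and 23.6 normalised reads, 198-fold lower. Cd163, the haemoglobin receptor, stood at 1915 and 126, 15.2-fold lower. Olr1, a receptor of oxidised LDL, was 38.3-fold higher (21.9 and 839), and Cd36, another, was 28377 and 34088. For the clearance of apoptotic cells 8 of 28 genes were higher and 6 lower, 34.8% and 26.1% of those that reached the minimum. Mfge8, the bridge between phosphatidylserine and integrins, stood at 2018 and 75594, 37.5-fold higher, Axl, a receptor tyrosine kinase, at 12492 and 25502, and Cd300lf, a receptor of phosphatidylserine, at 233 and 13448, 57.7-fold higher, while the receptor Stab2 stood at 377 and 12.3. Among Siglec, TREM and CD300 receptors 8 of 29 were higher and 5 lower, 38.1% and 23.8% of those that reached the minimum. Siglec1, sialoadhesin, stood at 27020.4 and 4361, Siglech at 342 and 6.7, and Cd22 at 327 and 3573. The adaptor Tyrobp was level at 21352 and 25478.

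The MS4A family of membrane-spanning proteins and the related Tmem176 pair were much lower in the GM-CSF culture. Of 15 measured 7 reached the minimum, 4 of them in M-CSF only, 6 were lower and none higher, in db/db marrow as well. Ms4a6b stood at 5319.8 and 29.2 normalised reads, 182-fold lower (interval 106 to 343), Ms4a6c at 9647 and 159, and Tmem176b at 14969 and 274. Ms4a7, at 16787 and 1211, was 13.9-fold lower. Among purinergic receptors 5 of 23 were higher and 4 lower, 35.7% and 28.6% of those that reached the minimum. The UDP receptor P2ry6 stood at 8736 and 2285 and the ADP receptor P2ry1 at 244 and 2695. The ATP-gated channel P2rx1 was 5.89-fold higher (72.3 and 426), and P2rx4, of the same family, level at 9549.6 and 8124.

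**Figure D4:**
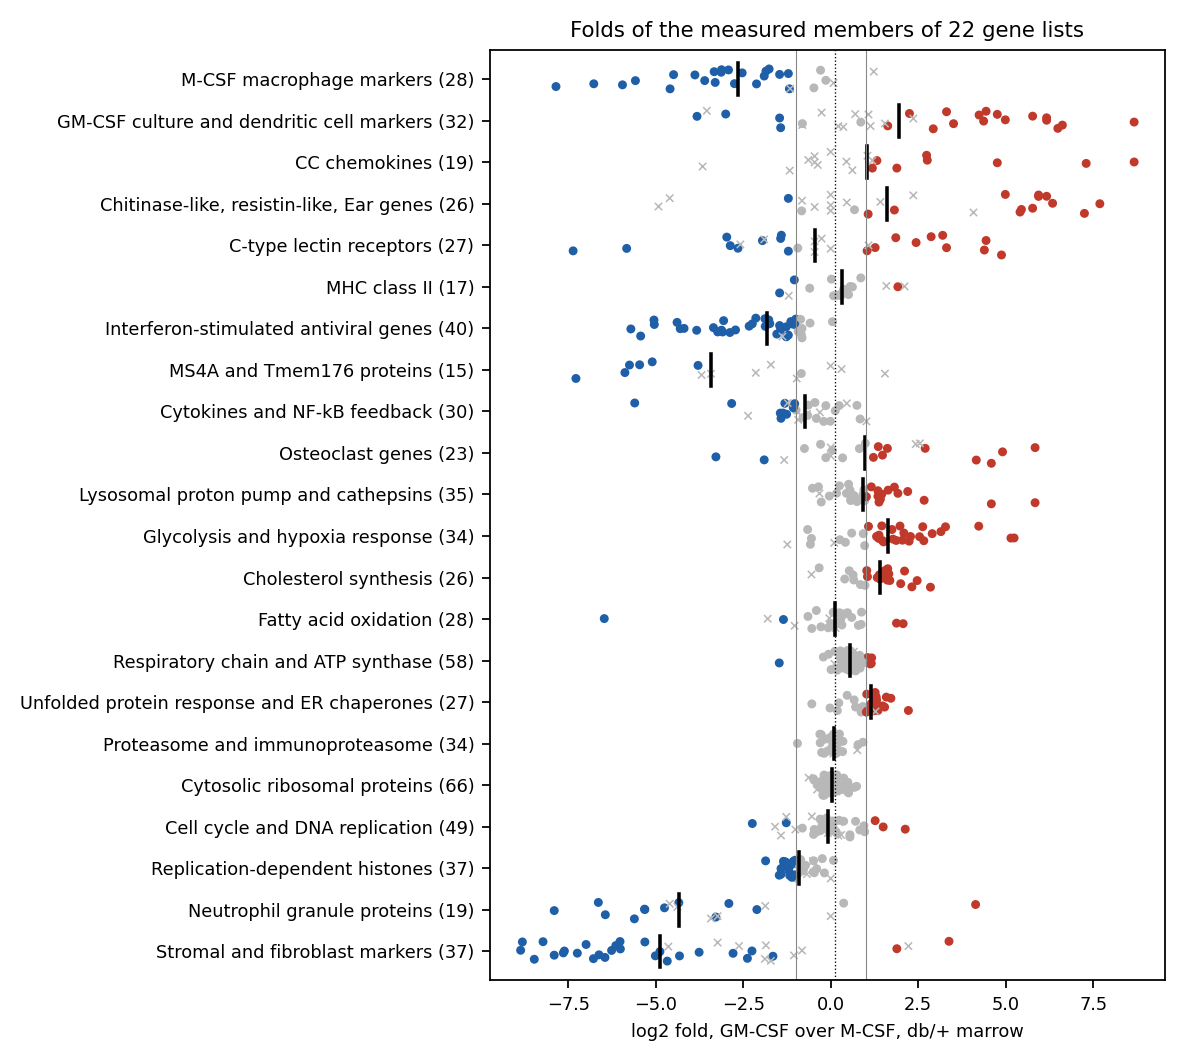
Each mark is the db/+ log2 fold of 1 gene in 22 lists (number measured in brackets), GM-CSF over M-CSF: red and blue dots are at least 2-fold higher or lower, grey dots under 2-fold, grey crosses did not reach 200 normalised reads in either library. Thick bars are medians over all measured members, the dotted line is the median of the genes compared (0.11), and the bars for ribosomal proteins (0.04), the proteasome (0.08), fatty acid oxidation (0.12) and MHC class II (0.31) fall below 0 with total-read scaling.

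Most antigen presentation genes were under 2-fold apart, as were most of all genes compared. Of class II genes that reached the minimum 7.14% were higher and 14.3% lower, and of class I genes 12.5% and 0%. The shares over all genes compared were 12.2% and 9.56%. Of 17 class II genes 14 reached the minimum, 1 was higher and 2 lower: the invariant chain Cd74 stood at 49679.8 and 76588 normalised reads and H2-Aa at 16174 and 20006, under 2-fold apart. Ciita, the transactivator of class II genes, was 2.77-fold lower (2629.9 and 951), and the peptide-trimming protease Ctss was 3.77-fold higher (56563 and 213517). In db/db marrow 2 class II genes were higher and none lower, with Ciita at 1740.1 and 1059.7. Of 25 class I presentation genes 3 were higher and none lower, with B2m at 56864 and 76093 and H2-D1 at 40934 and 41025, while the non-classical presenters Mr1 (479 and 2498) and Cd1d1 (145 and 706) were 5.21-fold and 4.88-fold higher. Costimulatory and checkpoint ligands went both ways, 4 higher and 4 lower of 22 (26.7% and 26.7% of those that reached the minimum). The 2 ligands of PD-1 were higher: Pdcd1lg2 stood at 15.2 and 1096 (72.1-fold, interval 36.2 to 168) and Cd274, PD-L1, at 1039.6 and 8313 (8-fold, interval 7.31 to 8.77). Cd40, the receptor through which T cells license presenting cells, was 32.9-fold lower (404 and 12.3), and 4632428N05Rik, an older symbol of the checkpoint receptor VISTA, 2.6-fold lower (16388 and 6306). Cd200, the ligand of an inhibitory myeloid receptor, stood at 62.8 and 1529, and at 128 and 1658 in db/db marrow.

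Chemokines of the CC family were higher in GM-CSF and those of the CXC family lower or under 2-fold apart. Of 19 measured CC chemokines 8 reached the minimum, 4 of them in 1 library only, and all 8 were higher (7 in db/db marrow). Ccl6 stood at 1985 and 312883 normalised reads, 158-fold higher (interval 148 to 168), with 1490.0 and 334669 in db/db marrow. Ccl22, which shares the receptor of Ccl17, stood at 39.9 and 1216, and the inflammatory chemokines Ccl3 (1016 and 3779) and Ccl4 (177 and 1229) were 3.72-fold and 6.95-fold higher. Ccl9, constitutively made by macrophages, was 2.29-fold higher (6790.3 and 15518). Of 6 CXC genes that reached the minimum 4 were lower and none higher: the interferon-induced Cxcl10 stood at 361 and 10.1, and the platelet-factor genes Pf4 at 8476 and 1948 and Ppbp at 333 and 69.5. Cxcl12, a stromal chemokine, stood at 923 and 5.6 and was higher in db/db M-CSF, at 2829. Of the receptors, Ccr1 was 5.44-fold higher (1679.7 and 9143), and Ccr2 (5281 and 8264) was under 2-fold apart.

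Of 26 genes of the interleukin-1 family and the inflammasome 7 were higher and 2 lower (4 and 3 with total-read scaling). The 7 and 2 are 38.9% and 11.1% of those that reached the minimum. Il1a stood at 15.2 and 1643 normalised reads, 108-fold higher (interval 54.5 to 251), with 18.3 and 1855 in db/db marrow, and Il1rn, the natural antagonist of the same receptor, at 556 and 7351, 13.2-fold higher. The inflammasome sensor Nlrp3 stood at 4094 and 2400.2 and the pyrin gene Mefv at 363 and 10.1. Il1f9, an older symbol of the interleukin-36 gamma gene, stood at 36.1 and 368. Il10, the anti-inflammatory cytokine, stood at 238 in M-CSF and 0 in GM-CSF, at least 35.3-fold lower, with 246 and 0 in db/db marrow. Of 30 cytokine and NF-kB feedback genes 9 were lower and none higher, Nfkbiz standing at 1766 and 244 and the mRNA-decay factor Zfp36 at 4106 and 1537. In the TNF superfamilies 7 of 35 were higher and 4 lower, 38.9% and 22.2% of those that reached the minimum. Tnfrsf9, the costimulatory receptor 4-1BB, stood at 4.8 and 941, Tnfsf8, the ligand of CD30, at 20.9 and 998, and Tnfrsf26 at 222 and 5604, while the main TNF receptors Tnfrsf1a (4321 and 3648) and Tnfrsf1b (19557 and 28754) were under 2-fold apart. The decoy receptor osteoprotegerin, Tnfrsf11b, followed the stromal pattern, at 508 and 4.5 with 1679.9 in db/db M-CSF. Of 33 interleukin receptors 5 were higher and 5 lower, with the interleukin-7 receptor Il7r at 2909 and 23470.1, the interleukin-13 receptor chain Il13ra1 at 765 and 2599.8, and Lifr, the receptor of leukaemia inhibitory factor, at 1420.1 and 79.6. Ifnar1, a chain of the type I interferon receptor, was under 2-fold apart at 9859.7 and 5049.

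Of 25 lipid mediator enzymes 3 were higher and 4 lower. These are 16.7% and 22.2% of those that reached the minimum, against 12.2% and 9.56% of all genes compared. Ptges, which makes prostaglandin E2, was 9.17-fold higher (36.1 and 331 normalised reads), Ltc4s, leukotriene C4 synthase, 5.46-fold higher (142 and 774), and the cyclooxygenase Ptgs2 9.02-fold lower (334 and 37.0, with 742 in db/db M-CSF). In arginine metabolism 7 of 18 genes were higher and 1 lower. Arg1, which splits arginine to ornithine and urea, stood at 52.3 and 14049, 269-fold higher (interval 182 to 397), with 30.5 and 14108 in db/db marrow. Slc7a2, the cationic amino acid transporter that supplies it, stood at 169 and 40279, 238-fold higher (interval 193 to 296), and Ass1, which rebuilds arginine from citrulline, at 16.2 and 321. Sat1, of polyamine breakdown, was level at 8409 and 9153. Genes often used as signs of alternative activation were higher in 12 of 26 cases and lower in 1, 9 of the 15 that reached the minimum doing so in 1 library only. Chi3l3, the chitinase-like protein Ym1, stood at 1027 and 32859, 32.0-fold higher, and of the eosinophil-type ribonucleases Ear2 stood at 46.6 and 3707, Ear6 at 6.7 and 2416, Ear7 at 6.7 and 1778, and Ear11 at 5.7 and 862. These families hold near-identical copies, so their reads may be shared between members. The exception was Mrc1, lower as given above.

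The lysosome and the proteases held many of the most-read genes. Of 35 genes of the proton pump, the cathepsins and related lysosomal proteins 34 reached the minimum, 14 were higher and none lower (17 and none in db/db marrow), with a median log2 fold of 0.93, and together they took 3.61% of reads in M-CSF and 7.89% in GM-CSF. Ctsd, an aspartic protease, stood at 165680.0 and 763006 normalised reads, 4.61-fold higher (interval 4.57 to 4.64), with 150673 and 770735 in db/db marrow, and Gpnmb, a lysosomal stress glycoprotein, at 69923 and 444619, 6.36-fold higher. Ctsb was at 269266 and 418120.5, under 2-fold apart. Osteoclast genes overlapped this list and were also higher, 9 of 23 against 2 lower. Ctsk, the collagenase of bone resorption, stood at 179.8 and 10565, 58.8-fold higher, with 411 and 10338 in db/db marrow. Acp5, tartrate-resistant acid phosphatase, stood at 404 and 7305, Atp6v0d2, a pump subunit of fusing cells, at 1734 and 41789, and Dcstamp, a fusion protein, at 76.1 and 2434.

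Among metalloproteinases and their inhibitors 5 of 36 were higher and 8 lower, 26.3% and 42.1% of those that reached the minimum. Of the 8, 4 were also at least 2-fold higher in the db/db than in the db/+ M-CSF library. Timp3, a matrix-bound inhibitor, was one of these, at 3565 and 33.7 normalised reads with 12275 in db/db M-CSF, and Adam17, which sheds TNF, was 12923 and 17181. The genes of coagulation factors X and VII were higher: F10 stood at 119.8 and 11978, and F7 at 34.2 and 5740.2, 168-fold higher (interval 106 to 283). The urokinase system was higher too, with Plau at 2342 and 13930.0 and its receptor Plaur at 767 and 12626. Of 25 genes of that list 9 were higher and 7 lower, 4 of the 7 with the db/db M-CSF excess. Of 33 repair growth factors 5 were higher and 6 lower, and 5 of the 6 had that excess, among them Ctgf (5093 and 5.6, 13537 in db/db M-CSF), Cyr61 (872 and 0, 2536 in db/db M-CSF) and Fgf7 (340.5 and 0, 1053 in db/db M-CSF). Spp1, osteopontin, stood at 11355 and 192050.4, 16.9-fold higher in GM-CSF, but at 25754 in db/db M-CSF. Grn, progranulin, was 33076 and 21567.

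Glycolysis and hypoxia-response genes were higher in GM-CSF: 24 of 34 measured genes were at least 2-fold higher and none lower, against 12.2% and 9.56% among all genes compared, with a median log2 fold of 1.63 (25 and none, 1.61, in db/db marrow). The count was 22 and none with total-read scaling. Aldoc, an aldolase, stood at 104 and 4109.5 normalised reads, 39.6-fold higher (interval 30.5 to 53.5), with 74.1 and 4322 in db/db marrow. Egln3, an oxygen-sensing hydroxylase, stood at 59.9 and 2291, Ankrd37, a classical hypoxia target, at 42.8 and 892, and the glucose transporter Slc2a1 at 669 and 6552, 9.8-fold higher. Of the enzymes with the highest mean reads in the list, Pgam1 was 6.31-fold (4152 and 26202), Aldoa 2.76-fold (16171 and 44594) and Pkm2, pyruvate kinase, 2.12-fold higher (17576 and 37198). Most respiratory chain and ATP synthase genes were under 2-fold apart, 4 of 58 higher and 1 lower, with a median log2 fold of 0.54, or 0.21 and no higher gene with total-read scaling. The subunit Ndufa4 was the lower one, at 1641 and 588, and Atp5a1 and Sdha stood at 13891 and 21039.6 and at 7395 and 10722.

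Cholesterol synthesis genes were higher in GM-CSF, 18 of 26 measured and none lower (17 and none in db/db marrow), with a median log2 fold of 1.40, or 1.08 and 16 higher with total-read scaling. The entry enzyme Hmgcs1 was 2.85-fold higher (6172 and 17608 normalised reads), the mevalonate enzyme Mvd 7.29-fold (418 and 3043), farnesyl diphosphate synthase Fdps 5.11-fold (173 and 885) and the squalene oxidase Sqle 4.33-fold (919.8 and 3984). Genes of fatty acid synthesis and storage were higher in 16 of 34 cases and lower in 2: the desaturases Scd1 (179 and 4494, with 399 in db/db M-CSF) and Scd2 (827 and 22261) were 25.1-fold and 26.9-fold higher, Mgll, monoglyceride lipase, 123-fold higher (139 and 17116) and Lpl, lipoprotein lipase, 2.15-fold higher (33897 and 72708). Of 21 LXR targets and efflux genes 5 were higher and 3 lower, 27.8% and 16.7% of those that reached the minimum. The 2 desaturases count among the 5, whereas Apoe and Cyp27a1, the sterol 27-hydroxylase (1895 and 299.5), were lower. Fatty acid oxidation genes were mostly under 2-fold apart, with 2 of 28 higher and 2 lower and Hadha at 4064 and 4269. The calls are 8.7% and 8.7% of those that reached the minimum, against 12.2% and 9.56% of all genes compared. Pdk4, a brake on pyruvate oxidation, was among the lower ones, at 537 and 1.1, with 1394 in db/db M-CSF.

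Amino acid supply and its stress response were higher in part. Of 27 amino acid transporters 11 were higher and 1 lower (6 and 2 with total-read scaling): beside Slc7a2, the cystine importer Slc7a11 stood at 305 and 12047 normalised reads, 39.5-fold higher (interval 33.8 to 46.6), and Slc43a2 was the lower one, at 29323 and 8351. Of 34 targets of ATF4 and tRNA synthetases 12 were higher and none lower (7 and none with total-read scaling), with Atf4 at 2967 and 8405, the pseudokinase Trib3 at 40.9 and 539.5 (129.8 and 493 in db/db marrow) and Mthfd2, of mitochondrial folate metabolism, at 493 and 2336. Phgdh, the first enzyme of serine synthesis, was 6.32-fold higher (80.8 and 510.3, with 160.3 in db/db M-CSF). In db/db marrow 8 were higher and 1 lower, and 31 of the 34 genes were higher in the db/db than in the db/+ M-CSF library. The share of all genes higher in that library was not counted. In the defence against oxidants 7 of 37 were higher and 3 lower. These are 20% and 8.57% of those that reached the minimum, against 12.2% and 9.56% of all genes compared. Thioredoxin Txn1 stood at 3049 and 13671, Gpx3 at 1689 and 6264, and the oxidase chain Cybb at 18267 and 31108.

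Chaperones and folding enzymes of the endoplasmic reticulum were higher in GM-CSF. Of 27 measured genes of the unfolded protein response 26 reached the minimum, all 26 in both libraries, and 17 were higher and none lower (14 and none in db/db marrow), with a median log2 fold of 1.16. With total-read scaling 6 were past 2-fold and the median was 0.83. Hspa5, the chaperone BiP, stood at 23954 and 60864 normalised reads, 2.54-fold higher (interval 2.49 to 2.6), with 24029 and 61113 in db/db marrow. Pdia4, a disulfide isomerase, was 4.67-fold higher (3449.8 and 16107), Sdf2l1 3.31-fold (1558 and 5158), Pdia6 3.01-fold (5356 and 16126), the calcium-binding chaperone Calr 2.91-fold (22911 and 66683) and Hsp90b1 2.47-fold (18243 and 45118).

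The element known for this response was searched as CCAAT and CCACG with any 9 bases between them, on both strands in the same 250 bases. It lay before 10 of the 23 listed genes with a promoter in the table (43.5%) and before 35 of 27025 genes in all (0.13%). Of all 23 genes 15 were higher in GM-CSF, and of the 10 with the element 7 were. The stretches of 3 of the 7 are printed because they show the spacing between the parts of the element, with the whole match in capitals, in the opposite orientation for Calr and Creld2. The list was drawn from genes known for this response, so the shared letters describe the list and do not bear on what acted in these cells.
Dnajc3, chr14:118937776-118937895, plus strand: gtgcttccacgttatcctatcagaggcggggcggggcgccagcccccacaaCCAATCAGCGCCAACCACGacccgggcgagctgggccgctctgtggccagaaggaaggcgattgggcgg
Calr, chr8:84847025-84847144, minus strand: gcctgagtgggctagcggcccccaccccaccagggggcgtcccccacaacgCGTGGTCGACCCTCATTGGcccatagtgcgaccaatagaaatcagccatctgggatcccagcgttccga
Creld2, chr15:88819469-88819588, plus strand: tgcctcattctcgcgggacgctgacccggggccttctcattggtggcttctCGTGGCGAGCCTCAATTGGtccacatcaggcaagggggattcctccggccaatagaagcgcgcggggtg
Dnajc3, a co-chaperone of Hspa5, stood at 3936 and 8781 normalised reads (2.23-fold higher, interval 2.11 to 2.35), and Creld2, a folding factor, at 729 and 1583 (2.17-fold higher, interval 1.92 to 2.47). Both were chosen for their promoters after their values were seen.

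Iron genes were more often lower than higher in GM-CSF, 37.5% and 8.33% of those that reached the minimum. The ferritin chains Fth1 (122239 and 306929.9 normalised reads) and Ftl1 (106890.0 and 187206) were above their M-CSF levels, Fth1 past 2-fold, whereas Cd163, Spic, Lcn2 (824 and 35.9), the ferroxidase Cp (1066 and 165) and the transferrin receptor Tfrc (5734 and 1924) were lower, 2 genes of 26 being higher and 9 lower. In the insulin, IGF and leptin receptor pathway 2 of 25 were higher and 7 lower, with Igf2r, the mannose-6-phosphate receptor, at 3635 and 11126, Igfbp4 at 17412 and 536, and Irs1 at 218 and 11.2, where db/db M-CSF stood at 699.7.

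Genes of general cell maintenance gave narrow ranges. None of the 57 ribosomal protein genes that reached the minimum (of 66 measured) and none of the 32 proteasome genes (of 34) was 2-fold apart in either direction, with median log2 folds over all measured of 0.04 and 0.08, or -0.29 and -0.23 with total-read scaling, and Rps3 stood at 15377 and 21335 normalised reads. The proteasome subunit Psmb5 stood at 991 and 1879, and its interferon-induced relatives Psmb8 and Psmb9 at 3106 and 3239 and at 1289 and 665. Of 49 cell cycle genes 3 were higher and 2 lower, 8.82% and 5.88% of those that reached the minimum. The shares over all genes compared were 12.2% and 9.56%. The proliferation marker Mki67 stood at 2285 and 3347 and Cdk4 at 1898 and 3375. Within the list Ccne1, cyclin E1, was 4.71-fold higher (49.5 and 233), Ccnd1 lower as given above, and the inhibitor Cdkn1a under 2-fold apart at 2629 and 2224. Replication-dependent histone genes did not follow: of 37 measured 34 reached the minimum, 15 were lower and none higher, with a median log2 fold of -0.91, or 27 lower with total-read scaling. Hist1h4i stood at 412 and 146 and Hist1h4b at 935 and 346, while the linker histone gene Hist1h1c was level at 5545 and 5855. These transcripts lack a poly(A) tail, and many are near-identical, so their reads may be shared. The median of the cell cycle genes was -0.08.

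The same contrast in db/db marrow, made from 2 libraries that the db/+ comparison does not use, gave counts of the same size: of 10070 genes compared 1159 (11.5%) were higher and 1048 (10.4%) lower in GM-CSF. The genes shared were 1037 higher, that is 85.7% of the db/+ and 89.5% of the db/db list, and 789 lower, that is 83.4% and 75.3%, and 0 genes passed 2-fold in opposite directions. Whether the db/+ and db/db folds differ cannot be tested with 1 library in each group. Both GM-CSF libraries lay above both M-CSF libraries for 48.5% of the genes compared and below them for 34.2%. The folds that differed most between genotypes were those of Msrb3, Rhobtb3, 9930013L23Rik, Syde1 and Fat4, all lower in GM-CSF and all higher in the db/db than in the db/+ M-CSF library: Msrb3 stood at 427 and 9.0 normalised reads in db/+ and 1083 and 0 in db/db marrow, and Fat4 at 277 and 9.0 against 822 and 2.2. On the other side were Oasl1, Slc14a1, Slc39a2, Ear2 and Ear12. Slc39a2, a zinc importer, stood at 16.2 and 2903 in db/+ and 2.6 and 2982 in db/db marrow, so the difference lay in M-CSF levels near the floor.

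**Figure D5:**
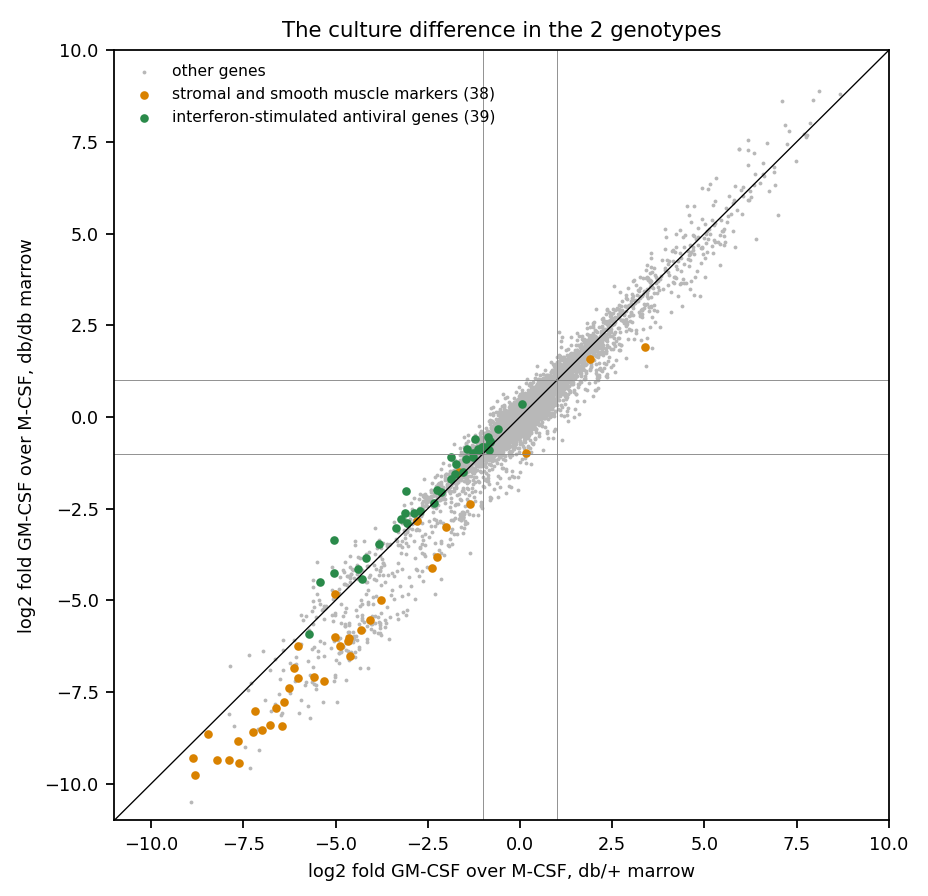
Log2 fold of GM-CSF over M-CSF in db/+ marrow (horizontal axis) and in db/db marrow (vertical axis), each point 1 gene with 200 normalised reads or more in any library; the diagonal marks equal folds and the thin lines 2-fold. Stromal and smooth muscle markers lie below the diagonal in 36 of 38 cases (orange) and interferon-stimulated antiviral genes above it in 35 of 39 (green). The sides of the diagonal were not counted over all genes drawn, so these counts have no general share beside them. No gene lies past 2-fold in opposite corners.

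The culture effect over both genotypes, with 2 libraries in each culture, was tested with limma in an additive model of genotype and culture. Of 10175 genes 6349 passed an adjusted p of 0.05, 3690 (36.3%) higher and 2659 (26.1%) lower in GM-CSF, and edgeR's quasi-likelihood test on the recovered read counts called 6318, 3120 higher and 3198 lower. The model had 1 residual degree of freedom, and its error was set by how far the culture differences of the 2 genotypes lay apart, pooled over genes, so that the close GM-CSF libraries given above enter it. For Csf1r limma gave a log2 difference of -1.76 (SE 0.10, adjusted p 2.48e-13), for Csf2rb 2.79 (SE 0.09, adjusted p 2.05e-18) and for Il10 -5.62 (SE 1.06, adjusted p 6.03e-05), each in the same direction in 2 of 2 genotypes. By list, all but 1 of 39 interferon-stimulated antiviral genes passed as lower and none as higher. Of 25 cholesterol synthesis genes 24 passed as higher and 1 as lower, of 32 glycolysis and hypoxia genes 28 and 3, of 34 lysosomal genes 29 and 3, and of 26 unfolded protein response genes 22 and 1. Respiratory chain genes passed as higher in 51 of 55 cases and as lower in 1, though few were 2-fold apart. Of 36 histone genes 34 passed as lower and none as higher, while of 33 proteasome genes 7 and of 57 ribosomal protein genes 19 passed as higher, and 1 and 2 as lower. These list counts use the deposited scaling, and limma was not run with total-read scaling. That scaling moved the db/+ median log2 fold from 0.54 to 0.21 for respiratory chain genes and from 0.04 to -0.29 for ribosomal protein genes.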

How the data were processed

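The deposited values are a signal per gene, with 1 column for each of 4 libraries: reads scaled by TMM, per the file headers and names, with 1 decimal. Per the submitters' processing notes, TopHat 1.2.0, edgeR and the builds mm8 and mm9 were used, in roles not given in the sources used here, and neither is the strand setting or the gene annotation, so reads of overlapping and antisense genes cannot be told apart. Dividing by the value of 1 read in each library (0.951 and 1.12 for the db/+ M-CSF and GM-CSF libraries) gave whole reads within 0.1 for 99.7% to 99.9% of values, that is 12801694 to 14311348 read pairs per library. Rows with repeated symbols (78) or symbols in the form of a date (25) were counted and not named.

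Log2 folds used a pseudocount of 5 and genes with 200 normalised reads or more in either db/+ library. Higher and lower mean at least 2-fold apart. Exact binomial intervals treat the mates of a pair as 1 count. Labels do not say that libraries stand for separate mice or cultures, so the limma p-values measure only the spread between these samples. That fit used limma 3.58.1 with a trended prior on genes reaching 200 in any library, with Benjamini-Hochberg adjustment, and edgeR 4.0.16 and DESeq2 1.42.0 on the recovered counts as alternatives, in R 4.3.3. The scripts were tested on simulated data. The names given are the 10 highest and 10 lowest folds, the 10 most-read genes of each library, up to 4 members with the largest fold and 3 with the highest mean in each of 63 lists, the growth factor genes with Lepr, and 5 genes in each direction whose folds differed most between genotypes. The comparison and lists were chosen with earlier results of these data known.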

Additional observations from a re-analysis of the deposited data

How the results depend on the processing

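The number of db/+ genes at least 2-fold apart, 2156 under the settings used, depended most on the level minimum: it was 3604 with a minimum of 20 normalised reads and 5032 with none, and for db/db marrow 3625 and 4470. The other alternatives gave 1752 to 2240 in db/+ marrow, the former with the whole counting interval past 2-fold. Of the 362 named genes none changed direction past 2-fold, and with total-read scaling 13 fell under and 10 passed 2-fold. With DESeq2's size factors Axl fell under 2-fold and Ifnar1 passed it, and with a pseudocount of 1 Csf2 passed it. For the culture effect over both genotypes, DESeq2 called 4608 genes, edgeR 6318 and the limma variants 5543 to 7787, and leaving out 1 library at a time, with the culture term alone, gave 4480 to 7054. Both low values left out a GM-CSF library, and there the lone sample is assumed to vary like the others. No paired analysis was possible because each group has 1 library, but the genotype term pairs the libraries of a genotype, and without it limma called 6288 genes. The depth, 3 read pairs being worth up to 6.73 normalised reads, limits folds of genes near 0, and stromal RNA in M-CSF was not separated from macrophage RNA.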
